A study of Homo sapiens with 6 samples.

Results

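The genes described here are 34 genes known to respond to androgen in prostate cells, other than the kallikreins. They were named in a fixed list, chosen with earlier results of these data known, and every probe of each gene was taken from the array. A probe was named for 33 of the 34 genes on the platform, and these genes had 56 probes. ACP3 stood in the list under its older name, ACPP. No probe was named for SORD, which encodes sorbitol dehydrogenase, in the annotation used here. Of the 33 genes, 28 were detected well enough to be compared, out of 8968 genes on the whole array.

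Androgens act through the androgen receptor, a transcription factor of the nuclear receptor family that enters the nucleus when it binds hormone and attaches to androgen response elements in promoters and enhancers. In prostate luminal cells its targets include secreted proteases and prostatic fluid proteins, membrane transporters, metabolic enzymes, and kinases and adaptors that carry the growth signal onwards. Many of these genes remain under receptor control in prostate cancer, and their transcripts are commonly used to read the activity of the receptor. 

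RNA came from LNCaP, an androgen-responsive line derived from a lymph node metastasis of a prostate cancer. The cells were grown in serum-containing medium, which was replaced by serum-free medium just before transfection, and no source used here says whether serum was added back later. Cells received 100 nM siRNA for 72 h, against TCTP in 3 samples and against luciferase (Luc), which human cells lack, in 3 control samples, and each sample was hybridised to 1 array. A single target sequence was used for each siRNA, all samples came from 1 cell line, and the labels name no androgen treatment and no untransfected cells. The series record calls the samples biological replicates but no source used here says that they were separate transfections. If they were not, p-values measure only the spread between these samples. 

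Array medians of the deposited intensities lay between 35.6 and 43.4, and between 12828 and 13741 probes per array were detected, that is, had a detection p under 0.01. TPT1, the gene of TCTP, changed by -0.75 log2 units (standard error, SE, 0.11, and limma adjusted p = 0.00328 among 13484 kept probes) on the probe ILMN_1789614 and of -0.19 (SE 0.11, adjusted p = 0.470) on the brighter probe ILMN_2094718. All 5 luminal epithelial markers with a probe were detected on all 6 arrays, namely EPCAM, FOXA1, HOXB13, KRT18 and KRT8. Of the markers with a probe, none of 3 basal, 5 fibroblast and 4 leukocyte markers was detected on any array, and of 4 endothelial markers VWF alone was detected.

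Intensities were quantile-normalized and taken to the log2 scale, without background subtraction, which compresses the changes of dim probes. A gene was tested if a probe was detected on at least 3 of the 6 arrays, and its brightest such probe stood for it. Changes are TCTP siRNA minus Luc siRNA in log2 units, and a gene was called higher or lower at a Benjamini-Hochberg adjusted p under 0.05 from limma over all 8968 genes. The 3 arrays a group limit precision, and limma moderates the variance of each gene with that of all genes tested.

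The androgen receptor binds as a dimer to a pair of inverted copies of AGAACA, or of TGTTCT on the other strand, with 3 bases between them. These letters were searched on both strands in RefSeq promoter windows of the build GRCh38.p14, from 250 bases before to 50 bases after each annotated gene start. The windows covered 25 of the 34 genes with 44 starts. No window was available for ADAMTS1, ELL2, MSMB, NDRG1, SORD, TMPRSS2, TPD52, ZBTB10 and ZBTB16, so these genes were not searched. A single copy of the core was found in 7 of these 44 windows (15.9%), compared with 14.8% of all 35116 windows, and the complete paired element in none of the 44 and in 1 of all windows. A match is a description of the letters and not a bound site, and much of the receptor's binding lies outside such windows. FKBP5 and SGK1 held the core only downstream of a start and are not shown. The stretches shown are those of the genes in which the core lay upstream of a start. The core is in capitals, so that the sequence can be set beside the change of each gene.
IQGAP2: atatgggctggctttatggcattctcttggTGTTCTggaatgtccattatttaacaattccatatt
STK39: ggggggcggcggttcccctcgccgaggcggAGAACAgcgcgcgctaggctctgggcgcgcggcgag
PMEPA1: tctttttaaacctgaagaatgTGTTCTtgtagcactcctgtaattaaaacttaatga
TRPM8: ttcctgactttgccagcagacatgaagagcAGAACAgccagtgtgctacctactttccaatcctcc
These lie at chr5:76547324-76547389 on the plus strand for IQGAP2, chr2:168247672-168247737 on the minus strand for STK39, chr20:57710771-57710827 on the minus strand for PMEPA1 and chr2:233979953-233980018 on the plus strand for TRPM8. The core began 55 bases upstream of a start of IQGAP2, 112 of STK39, 229 of PMEPA1 and 166 of TRPM8. As described next, IQGAP2 fell after TCTP siRNA, whereas STK39, PMEPA1 and TRPM8 did not pass the test.

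Most androgen-responsive genes did not pass the test after TCTP siRNA. Of the 28 tested, 2 were lower, IQGAP2 and TPD52, and 0 were higher, where 2.55% of all genes passed the test, 1.52% lower and 1.04% higher. At an unadjusted p under 0.05, 6 of the 28 genes were lower and 0 were higher, compared with 8.04% and 7.58% of all genes. The log2 change was below 0 in 22 of the 28 (78.6%), compared with 49.7% of all genes, and the median was -0.13, compared with 0.0011 for all genes. Counts and medians are given as descriptions, since the list was not tested as a set. In RNA of whole cultures, fewer cells of a type and less RNA per cell cannot be told apart.

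**Figure D1:**
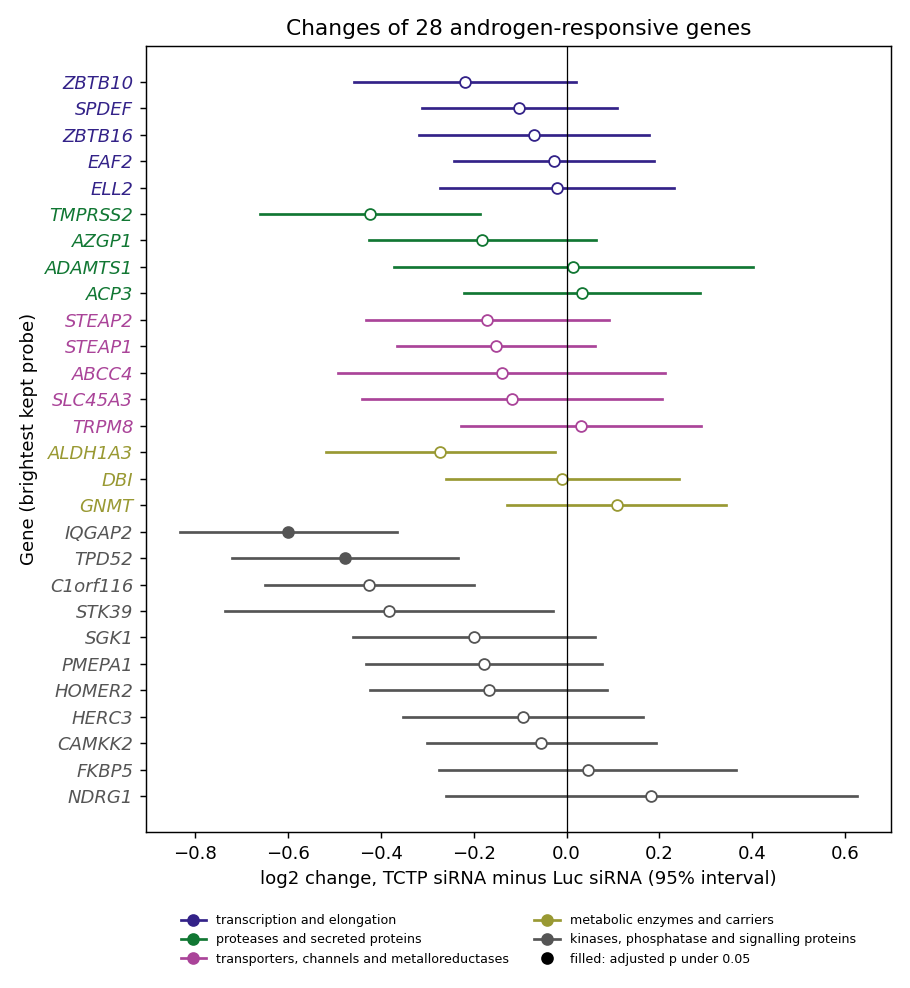
Log2 change of the 28 tested androgen-responsive genes (x axis, TCTP siRNA minus Luc siRNA, n = 3 arrays each) with 95% intervals from limma, ordered by role group and then by change. The filled points, IQGAP2 at -0.60 and TPD52 at -0.48, are the genes called lower, and 22 of the 28 points lie below 0.

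IQGAP2, a scaffold protein that binds small GTPases and the actin cytoskeleton, had the largest change of the 28 genes. Its log2 signal was 6.93, 6.68 and 6.70 after Luc siRNA and 6.28, 6.08 and 6.15 after TCTP siRNA. The groups did not overlap, and all 3 arrays of TCTP siRNA lay well below the lowest control array. The mean was 6.77 ± 0.14 (SD, n = 3) in the controls and 6.17 ± 0.10 (SD, n = 3) after TCTP siRNA, a log2 change of -0.60 (SE 0.11, adjusted p = 0.00968 from limma), which leaves 66.0% of the control signal, or a 1.51-fold fall. The IQGAP2 signal was dim, and the size of its change depended on background correction. Its log2 change was -0.77 with neqc and -0.51 with normexp (offset 50) background correction, and it was called lower with both. The call of IQGAP2 was lost without Luc siRNA replicate 1 (adjusted p = 0.0549 from limma), the array with its highest signal. It was also lost when arrays were scaled to a common median instead of quantile-normalized (adjusted p = 0.105 from limma).

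TPD52, a protein of vesicle trafficking and lipid storage that is often abundant in prostate cancer, was lower as well. The arrays of Luc siRNA gave 8.02, 8.02 and 7.77, and those of TCTP siRNA gave 7.56, 7.31 and 7.51, with no overlap. The log2 change was -0.48 (SE 0.11, adjusted p = 0.0422 from limma), which leaves 71.8% of the control signal. This call of TPD52 lay close to the threshold. It was lost when any one array other than TCTP siRNA replicate 3 was left out, with an adjusted p from limma between 0.0534 and 0.181, with median scaling (0.351) and with the replicate number as a block (0.0957). The other TPD52 probes were not tested, being detected on at most 1 array.

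C1orf116, also called specifically androgen-regulated gene, and TMPRSS2, the membrane serine protease whose promoter is fused to ETS genes in many prostate cancers, lay just outside the threshold. C1orf116 had 11.24, 11.36 and 11.11 after Luc siRNA and 10.90, 10.73 and 10.80 after TCTP siRNA. Its log2 change was -0.42 (95% interval -0.65 to -0.20, adjusted p = 0.0512 from limma). TMPRSS2 had 12.21, 12.00 and 11.94 after Luc siRNA and 11.73, 11.65 and 11.50 after TCTP siRNA. In both genes each array of TCTP siRNA lay below each control array. The log2 change of TMPRSS2 was also -0.42 (95% interval -0.66 to -0.19, adjusted p = 0.0604 from limma). Of 19 alternatives, TMPRSS2 was called in 1, the trended and robust variance (adjusted p = 0.0359), and C1orf116 in 3, that one (0.0359), normexp background correction (0.0412) and no detection filter (0.0422). In the others the adjusted p from limma rose to as much as 0.330 for TMPRSS2 and 0.376 for C1orf116, both with median scaling, and with the mean of its kept probes C1orf116 had a log2 change of -0.32 (0.135). The dimmer C1orf116 probe ILMN_2073446 had 9.93, 9.40 and 9.64 against 9.62, 9.40 and 9.31, so that its groups overlapped, and a log2 change of -0.21 (adjusted p = 0.526 from limma on probes).

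**Figure D2:**
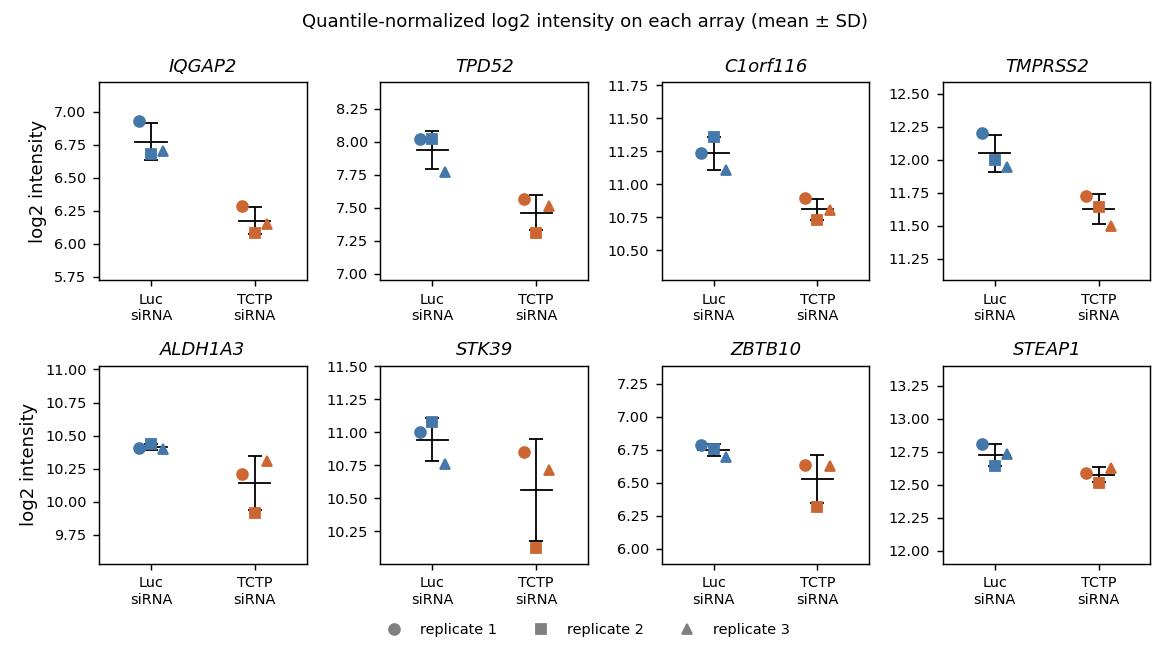
Quantile-normalized log2 intensity (y axis, each panel spanning the same log2 range) of 8 androgen-responsive genes on each array, with Luc siRNA in blue, TCTP siRNA in orange and the mean ± SD of 3 arrays in black. The groups do not overlap in 7 of the genes and overlap in STK39, in which TCTP siRNA replicate 2 lies lowest at 10.12.

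Among the genes of transcription and elongation none of 5 passed the test. This group holds SPDEF, an ETS factor of luminal cells, the zinc finger repressors ZBTB10 and ZBTB16, and ELL2 and EAF2, partners in the elongation of transcripts by RNA polymerase II. All 5 changes lay between -0.22 and -0.020, and EAF2 was detected on 3 arrays of Luc siRNA and 2 of TCTP siRNA. SPDEF had 9.20, 9.20 and 9.15 after Luc siRNA and 9.16, 8.99 and 9.09 after TCTP siRNA, and its groups overlapped narrowly. Its log2 change was -0.10 (95% interval -0.31 to 0.11, adjusted p = 0.670 from limma). ZBTB10 had 6.78, 6.76 and 6.70 against 6.63, 6.32 and 6.63, with no overlap. Its log2 change was -0.22 (95% interval -0.46 to 0.019, adjusted p = 0.365 from limma).

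Of the proteases and secreted proteins 4 of 6 were tested and none passed. Apart from TMPRSS2 these were ACP3, prostatic acid phosphatase, AZGP1, a secreted zinc-binding glycoprotein, and ADAMTS1, a metalloprotease of the extracellular matrix, with changes between -0.18 and 0.033 and overlapping groups. ADAMTS1 was spread widely after TCTP siRNA, at 9.89, 9.23 and 10.14, around the controls at 9.74, 9.81 and 9.67. The remaining genes of this group were not tested. ORM1, an acute-phase plasma protein, was detected on 0 arrays. MSMB, a major protein of prostatic fluid, was detected by 1 of its 3 probes, ILMN_1699243, on 2 of 3 arrays of Luc siRNA and 0 of 3 of TCTP siRNA. The log2 signals of this MSMB probe were 5.92, 6.16 and 6.25 after Luc siRNA and 5.79, 5.66 and 5.83 after TCTP siRNA, which did not overlap. Without the detection filter MSMB had a log2 change of -0.35 (SE 0.10, adjusted p = 0.129 from limma). As the probe was not detected after TCTP siRNA, this value is only a bound on the change. The other MSMB probes were detected on no array, and their groups overlapped.

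Membrane transporters, channels and metalloreductases did not pass the test in any of 5 tested genes, whose changes lay between -0.17 and 0.031. STEAP1 and STEAP2 belong to a family of membrane proteins that handle iron and copper. STEAP1 had 12.81, 12.64 and 12.73 after Luc siRNA and 12.59, 12.51 and 12.63 after TCTP siRNA. The groups were separated by a narrow margin, with a log2 change of -0.15 (95% interval -0.37 to 0.061, adjusted p = 0.504 from limma). On the other 3 tested STEAP1 probes, ILMN_1733094, ILMN_1705629 and ILMN_1772260, the groups overlapped and the log2 changes were smaller, -0.10, -0.086 and -0.066 (adjusted p between 0.705 and 0.842 from limma on probes). The brightest STEAP2 probe, ILMN_2344298, had 12.04, 11.64 and 11.66 against 11.70, 11.56 and 11.57, and the probe ILMN_1809101 had 11.88, 11.76 and 11.62 against 11.44, 11.23 and 11.68. On both probes of STEAP2 the groups overlapped. The log2 changes of STEAP2 were -0.17 (adjusted p = 0.577 from limma on probes) and -0.30 (0.286), and on a dim probe, ILMN_2259308, which had 6.06, 5.99 and 6.19 against 6.06, 6.22 and 6.08, it was 0.035 (0.918). The exporter ABCC4, the prostate membrane protein SLC45A3 and the cold-sensing channel TRPM8 had overlapping groups, and ANKH, which exports pyrophosphate and ATP, was detected on 0 arrays.

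Of the metabolic genes 3 were tested and none passed. ALDH1A3, which makes retinoic acid from retinal, had 10.41, 10.44 and 10.40 after Luc siRNA and 10.21, 9.91 and 10.30 after TCTP siRNA, with no overlap. Its log2 change was -0.27 (95% interval -0.52 to -0.026, adjusted p = 0.260 from limma). Its other probe, ILMN_2139970, had 10.44, 10.31 and 10.11 against 10.15, 9.84 and 10.41, so that the ALDH1A3 groups overlapped there, with a log2 change of -0.16 (adjusted p = 0.666 from limma on probes). DBI, an acyl-CoA-binding protein, had 12.42, 12.61 and 12.65 against 12.65, 12.66 and 12.34, and the groups covered nearly the same range. The log2 change of DBI was -0.0089 (95% interval -0.26 to 0.24, adjusted p = 0.982 from limma). GNMT, a methyltransferase that uses S-adenosylmethionine, had a log2 change of 0.11 (95% interval -0.13 to 0.34), and HPGD, which inactivates prostaglandins, was detected on 0 arrays.

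The group of kinases, phosphatase and signalling proteins was a broad one and held both called genes and 11 of the 28 tested. It also took in scaffolds, a co-chaperone and a trafficking protein, and neither IQGAP2 nor TPD52 is a kinase or phosphatase. Of the 11 genes of this group, 9 had a change below 0. STK39, a kinase that regulates ion cotransporters, had 11.002, 11.08 and 10.76 after Luc siRNA and 10.85, 10.12 and 10.72 after TCTP siRNA. One array, TCTP siRNA replicate 2, lay far below the rest, and the groups overlapped. The log2 change of STK39 was -0.38 (95% interval -0.73 to -0.028, adjusted p = 0.272 from limma). FKBP5, a co-chaperone of steroid receptors and a widely used readout of androgen signalling, had 8.41, 8.50 and 8.45 against 8.89, 8.19 and 8.41. The arrays of TCTP siRNA lay on both sides of the controls, and the log2 change of FKBP5 was 0.045 (95% interval -0.27 to 0.37, adjusted p = 0.916 from limma). NDRG1, a gene that also responds to hypoxia and other stress, had the largest positive change, 0.18 (95% interval -0.26 to 0.62, adjusted p = 0.726 from limma), and the widest spread, with 10.14, 9.08 and 9.72 after TCTP siRNA. The kinases SGK1 and CAMKK2, PMEPA1, which restrains TGF-beta signalling, the scaffold HOMER2 and the ubiquitin ligase HERC3 had changes between -0.20 and -0.054 with overlapping groups. PTPN21, a tyrosine phosphatase, was detected on 0 arrays.

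Over all 28 genes, 7 had groups that did not overlap with TCTP siRNA lower, where 10.8% of all genes did so, and 0 had groups that did not overlap with TCTP siRNA higher, compared with 10.4% of all genes. The 7 genes were IQGAP2, TPD52, C1orf116, TMPRSS2, ALDH1A3, ZBTB10 and STEAP1, each on its brightest probe.

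The lower signals were unevenly divided among the arrays of TCTP siRNA. Relative to the mean of the controls, the median difference of the 28 genes was -0.31 log2 units on TCTP siRNA replicate 2, -0.17 on replicate 3 and -0.00096 on replicate 1. Over all genes these medians were -0.0049, 0.0011 and 0.00017. TCTP siRNA replicate 2 had the lowest signal of the 6 arrays in 19 of the 28 genes (67.9%), compared with 23% of all genes. TCTP siRNA replicate 1 and Luc siRNA replicate 1 each had the highest in 7 (25%), compared with 16.6% and 20.4% of all genes. Without TCTP siRNA replicate 2 the 28 genes had a median change of -0.070, with 20 genes below 0, compared with 49% of all genes. Of the 28, IQGAP2 alone was called lower, where 170 of all 8968 genes were lower and 145 higher. With TCTP siRNA replicate 1 left out instead, the median was -0.19, with 26 genes below 0, compared with 49.9% of all genes. Again IQGAP2 alone of the 28 was called, but this fit made fewer calls among the 8968 genes, 53 of them lower and 36 higher. The SD within a group was larger after TCTP siRNA than after Luc siRNA in 20 of the 28 genes (71.4%). Over all genes this share was 64.5%. The median SD was 0.20 log2 units after TCTP siRNA and 0.091 after Luc siRNA, compared with 0.14 and 0.10 over all genes.

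**Figure D3:**
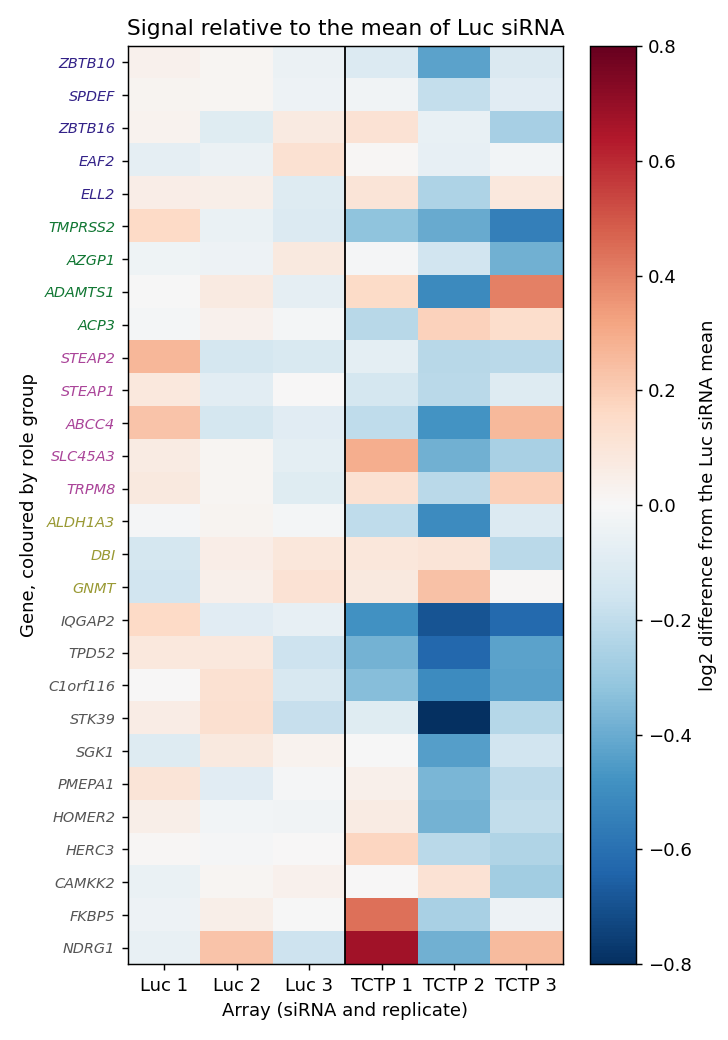
Difference of each array from the mean of Luc siRNA (colour, log2 units) for the 28 androgen-responsive genes (rows, names coloured by role group) on the 6 arrays (columns). The column of TCTP siRNA replicate 2 is the bluest, with a median of -0.31, and IQGAP2, TPD52, C1orf116 and TMPRSS2 are blue on all 3 arrays of TCTP siRNA. SPDEF, ZBTB10, AZGP1, STEAP1, STEAP2, ALDH1A3, SGK1 and STK39 also lie below 0 on all 3 of these arrays, some of them barely.

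Among the tested genes 9 had more than 1 detected probe, 22 probes in all. Of these 19 had a change below 0, compared with 48.9% of all kept probes. None passed the test over all kept probes, where 153 of 13484 probes were lower and 107 higher. The 13 differences in change between a further probe and the brightest probe of its gene lay between -0.18 for ZBTB16 and 0.21 for C1orf116. None of these differences separated the groups (two-sided exact permutation test over arrays, p between 0.4 and 1, and 1 after Benjamini-Hochberg adjustment over the 13), and 3 arrays against 3 allow no p below 0.1.

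**Figure D4:**
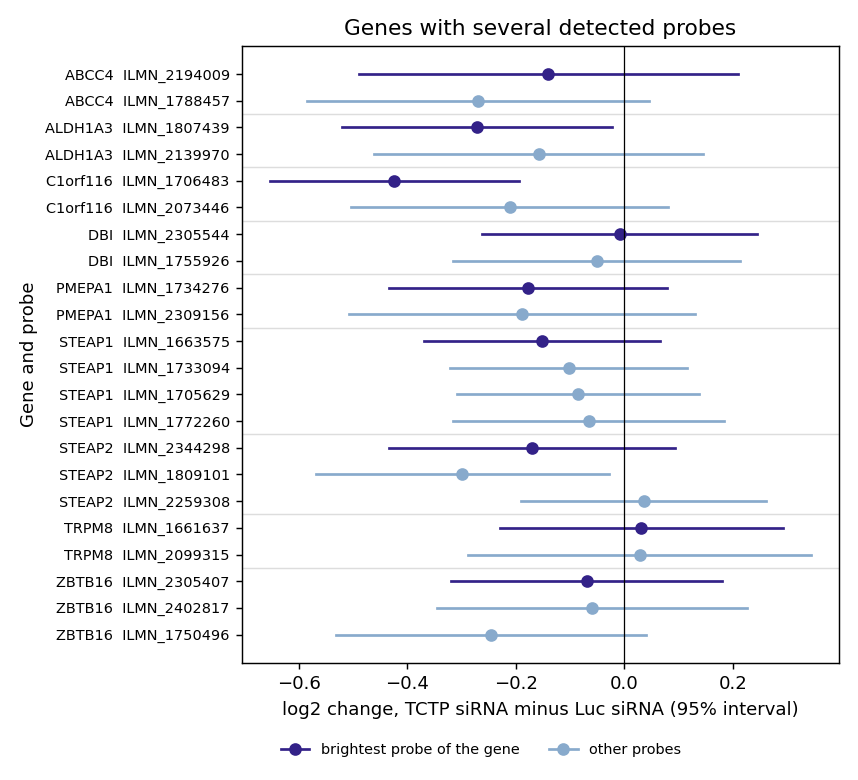
Log2 change with 95% interval (x axis, TCTP siRNA minus Luc siRNA, limma over all kept probes) for the 22 detected probes of the 9 androgen-responsive genes that had several, with the brightest probe of each gene in dark blue. The probes of STEAP2 run from -0.30 to 0.035 and those of C1orf116 from -0.42 to -0.21, and 19 of the 22 points are below 0.

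A further 74 genes linked to the androgen response were listed from general knowledge for comparison. This list was drawn up with earlier results of these data known, so its counts are no independent evidence. Of the 62 tested, 1 was lower, ARID5B, a chromatin regulator with a log2 change of -0.46 (SE 0.10, adjusted p = 0.0324 from limma), and 0 were higher. The share called is close to that of all genes, of which 1.52% were lower and 1.04% higher. At an unadjusted p under 0.05, 13 of the 62 were lower and 3 were higher, compared with 8.04% and 7.58% of all genes. Their median log2 change was -0.089, and 67.7% lay below 0, compared with 49.7% of all genes. The difference between these genes and the 28 was not tested. A list of 6 genes known to be repressed by androgen in prostate cells was also drawn up with results of these data known, so its count is no independent evidence. Of the 4 tested, 3 were higher after TCTP siRNA, where 1.04% of all genes were, namely CAMK2N1, an inhibitor of CaM kinase II (log2 change 1.57), and the androgen-glucuronidating enzymes UGT2B15 (0.85) and UGT2B17, whose similar sequences leave their probes open to shared signal. UGT2B17 had 9.28 ± 0.11 log2 (SD, n = 3) after Luc siRNA and 9.81 ± 0.13 (SD, n = 3) after TCTP siRNA, a log2 change of 0.53 (SE 0.11, adjusted p = 0.0199 from limma). OPRK1, an opioid receptor and the fourth of these genes, had a log2 change of -0.064 (adjusted p = 0.849 from limma).

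**Figure D5:**
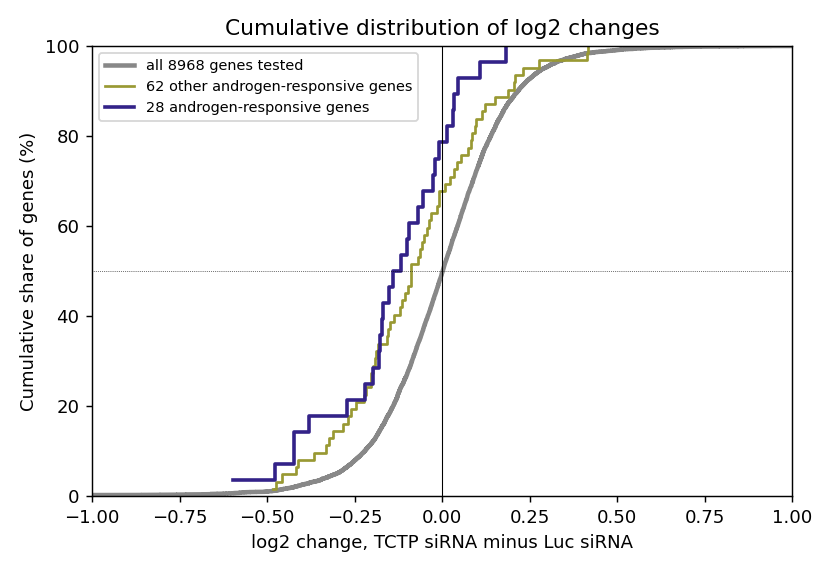
Cumulative share of genes (y axis, %) against log2 change (x axis, TCTP siRNA minus Luc siRNA, shown from -1 to 1) for the 28 androgen-responsive genes, 62 other genes linked to the androgen response and all 8968 genes tested. The curve of the 28 genes crosses 50% at a median of -0.13, that of the other 62 at -0.089 and that of all genes at 0.0011.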

How the data were processed

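LNCaP RNA was measured on 6 Illumina HumanWG-6 v3 arrays. The authors deposited BeadStudio summary intensities, neither normalized nor background-subtracted, with a detection p-value per probe, and quantile-normalized intensities made in J-Express, which were used as an alternative and differed from the values used here by at most 0.0305 log2 units. Quantile normalization of the deposited intensities and the log2 step used limma 3.58.1 in R 4.3.3. Of 48803 probes, 27578 had 1 gene symbol, 13 had several and 21212 had none listed. Symbols came from the platform annotation, matched by gene identifier to RefSeq symbols (GRCh38.p14). Groups were compared with lmFit and eBayes. The study's methods name SAM and feature selection, without settings.

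The genes and lists were chosen with earlier results of these data known. Values on every array are given for those of the 34 genes that were called, had an unadjusted p under 0.05 or groups without overlap, or had the highest signal of a role group, and for all kept probes of a gene with several if at least 1 had an unadjusted p under 0.05. ADAMTS1, FKBP5, MSMB, NDRG1, CAMK2N1, UGT2B15, UGT2B17, ARID5B and OPRK1 were chosen after their values were seen. Alternatives were normexp (offset 50) and neqc (offset 16) background correction, scalings, detection filters and probe choices, the authors' values, eBayes with trend and robust, a stricter threshold, the replicate number as a block and each array left out. No source used here names a beadchip or scan date for an array. Plots used matplotlib 3.10.9 (Python 3.11.15).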

Additional observations from a re-analysis of the deposited data

How the results depend on the processing

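The number of androgen-responsive genes called lower was 0 with median scaling, 1 at an adjusted p under 0.01, 4 with eBayes with trend and robust and between 0 and 2 with 1 array left out, and 2 or 3 under the other alternatives except the block. No androgen-responsive gene was called higher under any alternative run. Over all genes 35 were lower and 17 higher with median scaling, 56 and 32 at an adjusted p under 0.01, and 142 and 96 with eBayes with trend and robust. With 1 array left out between 53 and 170 were lower and between 30 and 145 higher. Under the other alternatives except the block, between 104 and 177 were lower and between 75 and 119 higher. Their number tested ran from 8309 genes with detection on all 6 arrays to 18665 with no detection filter. The median log2 change of the genes lay between -0.19 and -0.070 with 1 array left out and was -0.070 with median scaling, where the median of all genes was 0.034 and 41.8% of all genes lay below 0.

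The replicate number as a block gave 1 androgen-responsive gene lower, IQGAP2 (adjusted p = 0.0216 from limma), with 0.0957 for TPD52, and 72 genes lower and 44 higher over all genes. Deviations from the group mean had correlations across genes of -0.071, -0.059 and -0.40 between arrays of the same number, for replicates 1, 2 and 3. The highest correlations of these TCTP siRNA arrays with a Luc siRNA array of another number were 0.25, 0.49 and 0.44. With each deviation taken from the mean of only 3 arrays, these values cannot tell whether arrays of the same number were handled together.

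The change of 12 genes that did not pass the test took the other sign under some alternative. That of DBI was 0.010 with cyclic loess and 0.077 with median scaling, and that of ELL2 was 0.00090 with median scaling. With 1 array left out the changes lay between -0.34 and 0.027 for ABCC4, -0.041 and 0.16 for ACP3, -0.18 and 0.28 for ADAMTS1, -0.14 and 0.057 for CAMKK2, -0.081 and 0.097 for DBI, -0.063 and 0.034 for EAF2, -0.081 and 0.094 for ELL2, -0.15 and 0.20 for FKBP5, -0.065 and 0.46 for NDRG1, -0.32 and 0.014 for SLC45A3, -0.049 and 0.16 for TRPM8 and -0.16 and 0.027 for ZBTB16. The cause of these changes of sign was not tested. The fits that leave 1 array out also had fewer arrays. Over the 28 genes and 19 alternatives, 493 values kept their direction and side of the threshold, 10 lost and 4 gained a call, and 24 changed sign. The block, the stricter threshold, eBayes with trend and robust, the detection filters and the fit of every kept probe reused the same log2 changes. In these the sign could not change, so the 493 is no measure of how stable the direction was.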
